A study of Mus musculus with 4 samples.

Results

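The transcripts described here belong to the Wnt pathway in newborn mouse retina: the Wnt ligands, their Frizzled receptors, the secreted Frizzled-related proteins and the effectors that carry the signal inside the cell. They were chosen by gene symbol from a table of read counts. The rule uses no measured value but was set with earlier results of these data known. Of the 52550 genes in the table, 49 are members. The members comprise 19 Wnt ligands, 10 Frizzled receptors, 4 secreted Frizzled-related proteins (*Sfrp1*, *Sfrp2*, *Sfrp4* and *Sfrp5*), 10 cytoplasmic effectors and 6 nuclear factors. Retinas of wild-type C57BL/6 mice at postnatal day 0 (P0) were dissociated with papain, and RNA was sequenced before (input) and after pulldown with an antibody against YTHDF2 (RNA immunoprecipitation, RIP), in 2 replicates of each kind and 4 libraries in all. YTHDF2 is a reader of N6-methyladenosine (m6A), a modified base in mRNA, and binding by YTHDF2 is known to shorten the life of an mRNA. The study used this assay to find the transcripts that YTHDF2 binds. A pulldown with control IgG was not analysed here, so the part of RNA held by beads or antibody without YTHDF2 was not tested.

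In the canonical pathway a secreted Wnt protein binds a Frizzled receptor together with LRP5 or LRP6, and Dishevelled (*Dvl* genes) passes the signal on. Without the ligand, a complex of AXIN, APC and the kinase GSK3 marks β-catenin (*Ctnnb1*) for destruction. With it, β-catenin accumulates and joins TCF/LEF factors on DNA, where it displaces the Groucho-type corepressors (*Tle* genes). Secreted Frizzled-related proteins bind Wnt proteins outside the cell. In the eye the pathway is known for its part in the formation of the ciliary margin and of the retinal vessels, and branches that do not use β-catenin steer axons and planar polarity.

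Total counts ran from 19530226 to 39499994 per library, of which protein-coding genes outside the mitochondrial genome kept 2064465 to 3560122. The member transcripts held 0.27% and 0.338% of these protein-coding counts before pulldown and 0.702% and 0.693% after it. *Gsk3b*, *Ctnnb1*, *Fzd5* and *Fzd3* made up most of the 15335 and 14302 member counts after pulldown. *Gsk3b* alone had 4111 and 4021 of them. The share held by the rest of the members rose far less. A normalised level is given in CPM (counts scaled to a common library size with edgeR's TMM factors), so a change here is one against most other transcripts and no amount of RNA bound. The inputs differed from each other more than the RIP libraries did. Over the tested members, the absolute log2 difference between replicates had a median of 0.67 in the inputs and 0.17 after pulldown. The log2 ratio of input replicate 2 over input replicate 1 rose with transcript length across these 31 members (Spearman's rho 0.60, a description over genes of the same libraries) and fell with GC content (rho -0.47). Over all tested protein-coding transcripts the same rho values were 0.35 and -0.60. Among markers of retinal cells, those of progenitors summed to 302 to 393 CPM in the inputs and 198 to 217 CPM in the RIP libraries, and those of ganglion cells to 69.6 to 88.0 and 28.2 to 28.5 CPM. Amacrine and horizontal cell markers summed to 63.5 to 107 CPM before and 43.7 to 46.6 CPM after pulldown. The sum for photoreceptor precursors was higher after it, at 133 to 147 against 103 to 115 CPM. That rise came mostly from *Crx* (mean 31.6 to 58.6 CPM) and *Prdm1* (17.4 to 30.9 CPM). *Otx2* (36.8 to 28.0 CPM) and *Nr2e3* (10.3 to 8.58 CPM) were lower after pulldown, *Nrl* overlapped and *Rcvrn* was too low to test. Microglia and astrocyte markers stayed at 1.69 to 4.28 CPM in all libraries. Of 8 markers of the retinal pigment epithelium 5 had no count in any library, as had 5 of 6 lens markers, and the whole lists stayed at 3.38 to 4.80 CPM and at 0 to 0.09 CPM. Vessel markers summed to 32.3 to 33.4 CPM in the inputs and 65.6 to 67.2 CPM in the RIP libraries, nearly all of it from *Kdr*, while *Pecam1* had at most 0.21 CPM. The part of these lists in the results was not tested.

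Before pulldown the pathway was carried by a few of its genes. Levels of different genes are compared here in the deposited FPKM values, which are scaled per transcript length. The highest mean input levels belonged to *Ctnnb1* at 6.05 ± 0.138 FPKM (SD, n = 2), *Gsk3a* at 5.68 ± 2.01, *Fzd5* at 4.56 ± 1.13, *Sfrp2* at 4.46 ± 0.623 and *Dvl3* at 4.16 ± 1.12. These 5 did not separate from each other by their replicates, apart from *Ctnnb1*, whose 2 inputs lay above both inputs of *Fzd5*, *Sfrp2* and *Dvl3*. No ligand came near them, and in bulk tissue fewer cells of a type and less RNA per cell cannot be told apart behind a low level. *Wnt5b*, the highest, reached 0.230 ± 0.155 FPKM. At the other end, 9 Wnt genes (*Wnt1*, *Wnt2*, *Wnt3a*, *Wnt4*, *Wnt6*, *Wnt8a*, *Wnt9b*, *Wnt10b* and *Wnt16*) and *Sfrp5* had 0 counts in all 4 libraries. A count of 0 allows up to 3 counts, which is 0.0874 to 0.125 CPM depending on the library and covers counting error only. Another 8 members had counts too low to test. *Wnt7a*, a ligand with known roles in axons and synapses, had 9 and 3 input counts and none in either RIP library, and *Fzd9* had 7 and 10 against 6 and 5. *Wnt10a* had 7 counts in input replicate 1 and none elsewhere, and *Wnt9a* had 9 and 7 input counts and 3 and 0 RIP counts. *Wnt2b*, a ligand known from the ciliary margin, had 2 counts in a single input, and *Wnt8b*, *Wnt11* and *Sfrp4* did not exceed 11 in any library.

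**Figure D1:**
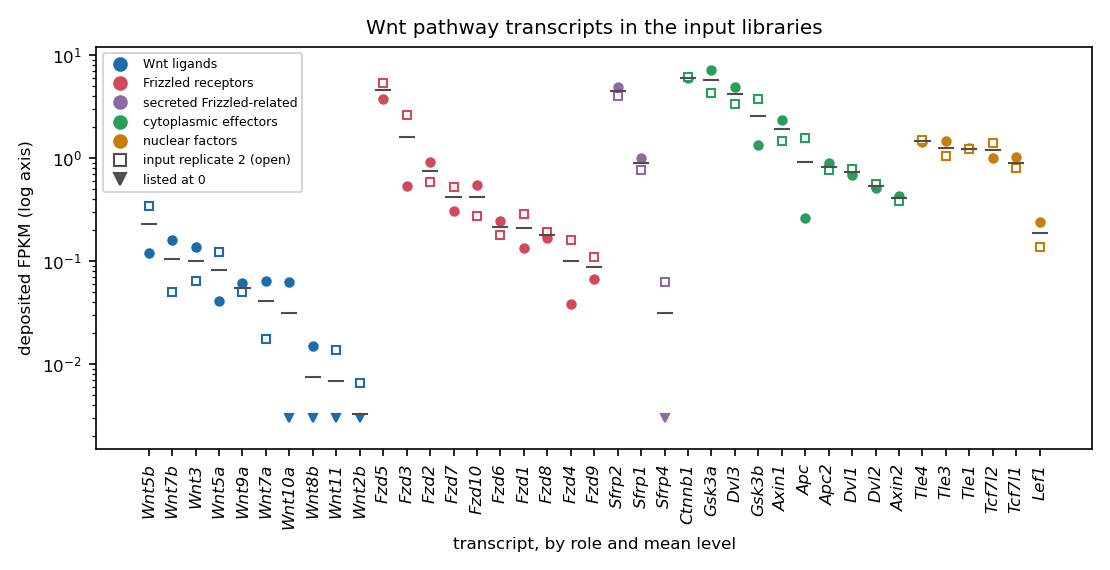
Deposited FPKM of the 39 members with any input signal, on a log axis, with input replicate 1 as filled circles, input replicate 2 as open squares and the mean as a bar; triangles at the lower edge stand for libraries listed at 0. Ligands lie at or below 0.340 FPKM, while *Ctnnb1* and *Gsk3a* lead the cytoplasmic effectors at mean levels of 6.05 and 5.68 FPKM.

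The RIP libraries were set against the inputs in edgeR's quasi-likelihood framework, fitted on the 13632 genes of the table that passed a filter on low counts, and 31 members passed it. Enriched means a log2 ratio of RIP over input of 1 or more with an unadjusted p below 0.05, and depleted a ratio of -1 or lower with the same p, the limits that can be read off the study's list of targets. Adjusted p-values are Benjamini-Hochberg values from that fit over all 13632 genes. With 2 libraries a group the exact permutation test of a single transcript has a smallest two-sided p of 0.333, so every call leans on the spread the model shares between genes. Of the 31 tested members, 7 (22.6%) were enriched, against 9.43% of all tested transcripts, and 3 (9.68%) were depleted, against 17.2%. *Wnt7b*, among the 7, would not have passed the filter on its input counts alone. When libraries were scaled by total counts alone, the split was 13 enriched to 1 depleted in place of 7 to 3, with all tested transcripts at a median of 0.27 on the log2 scale. More of all tested transcripts were enriched under that scaling too. At an adjusted p below 0.05, 2 members were higher in the RIP, where 3.48% of all tested transcripts were, and 1 was lower, where 9.78% were. Blocking on the replicate number kept the same 7 and 3 members but raised the number higher at an adjusted p below 0.05 to 5. Over all tested transcripts the number higher at that limit also rose with the block. Both RIP libraries lay above both inputs for 15 members (29.6% of all tested transcripts did) and below both for 5 (31.3% of all). The median log2 fold change of the tested members was 0.41 and that of all tested transcripts -0.05. Taken singly, the replicates gave a ratio of RIP to input with the same sign for 22 of the 31.

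**Figure D2:**
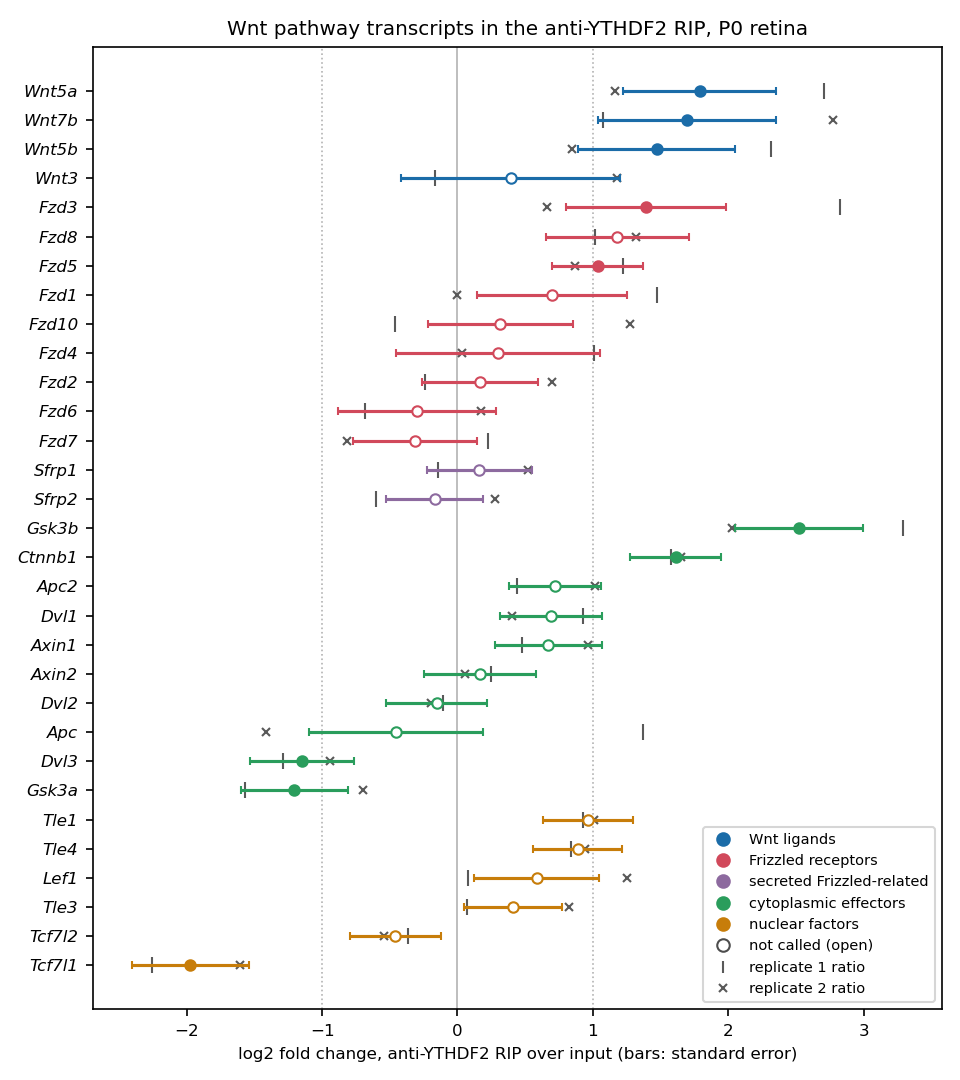
Log2 fold change of RIP over input for the 31 tested members, ordered by role, with bars of 1 SE from edgeR; filled points are called and open points are not, and the small marks give the ratio in each replicate. Values run from -1.97 for *Tcf7l1* to 2.52 for *Gsk3b*, and the replicate marks of *Apc* lie on opposite sides of 0.

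The kinase GSK3 is encoded by a pair of genes, and at the unadjusted limits they moved in opposite directions. *Gsk3b*, the isoform best known from neuronal polarity and axon growth, was enriched, and *Gsk3a*, its close paralog, was depleted. *Gsk3b* (ENSMUSG00000022812, GRCm38 chromosome 16, 38089001 to 38246084, plus strand) had 554 and 1404 input counts (replicate 1, then 2) and 4111 and 4021 RIP counts. This was 28.8 ± 17.2 CPM before pulldown (SD, n = 2) and 165 ± 2.99 CPM after it. Both RIP libraries were far above both inputs, and the inputs were themselves apart. The log2 fold change of *Gsk3b* was 2.52 (standard error, SE, 0.474, edgeR adjusted p = 0.0119), the largest rise among the tested members. *Gsk3a* (ENSMUSG00000057177, chromosome 7, 25228258 to 25237851, minus strand) had 852 and 466 input counts and 217 and 201 RIP counts. It went from 19.6 ± 8.47 to 8.48 ± 0.173 CPM, with no overlap between the groups. Its log2 fold change was -1.21 (SE 0.396, edgeR adjusted p = 0.0802, with the replicate block adjusted p = 0.0919). A ratio of counts within a library is free of scaling between libraries. *Gsk3b* over *Gsk3a* was 0.650 and 3.01 before pulldown and 18.9 and 20.0 after it.

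*Ctnnb1*, which encodes β-catenin, the signal carrier of the canonical branch and a partner of cadherins at cell junctions, was enriched, and among the 10 called members its ratio of RIP to input differed least between the replicates. The gene (ENSMUSG00000006932) occupies 120929216 to 120960507 of chromosome 9, plus strand. Its reads came to 1285 and 1207 input counts and 2897 and 2651 RIP counts, or 36.9 ± 2.38 and 113 ± 3.26 CPM (SD, n = 2). The groups were well apart and each pair of replicates close together. Its log2 fold change was 1.61 (SE 0.334, edgeR adjusted p = 0.0174), at 1.58 in replicate 1 and 1.65 in replicate 2.

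The m6A mark is placed in a short consensus of which GGACT is a common form, so matches to these 5 letters, read on the transcript's own strand, are shown for the coding sequences of the transcripts with the largest rise and the largest fall and, chosen after the values were seen, of *Ctnnb1*. *Gsk3b* had a single match in its coding sequence, in exon 4 of 11, and 8 in the part after it. All 7 matches of *Ctnnb1* lay in its coding sequence, and *Gsk3a* had none there. The windows are 25 bases of GENCODE M21 transcripts on GRCm38, 5′ to 3′, with the motif in capitals and its exonic position after the name.
Gsk3b, exon 4, chr16:38184454-38184478, plus strand: acctggtgctGGACTatgttccgga
Ctnnb1, exon 5, chr9:120951408-120951432, plus strand: tgtactgctgGGACTctgcacaacc
Ctnnb1, exon 6, chr9:120951673-120951697, plus strand: cctagctggtGGACTgcagaaaatg
Ctnnb1, exon 8, chr9:120955204-120955228, plus strand: aactgtctttGGACTctcagaaacc
Ctnnb1, exon 9, chr9:120955341-120955365, plus strand: ggcctccttgGGACTctagtgcagc
Ctnnb1, exon 9, chr9:120955601-120955625, plus strand: ccttcattatGGACTgcctgttgtg
Ctnnb1, exon 11, chr9:120957187-120957211, plus strand: tgtaatccgaGGACTcaataccatt
Ctnnb1, exon 14, chr9:120958594-120958618, plus strand: tgcagatcttGGACTggacattggt
Tcf7l1, exon 12, chr6:72627685-72627709, minus strand: gcagcacgctGGACTcccctgcgac

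Such matches are common. Of the tested protein-coding transcripts 76.7% held a GGACT in the coding sequence, and of the 31 tested members 23 (74.2%) did. Per kilobase of transcript the members had a median of 1.08 matches and all tested protein-coding transcripts 1.04. Depleted *Tcf7l1*, with 1.97 per kilobase, had slightly more than enriched *Ctnnb1* with 1.93. The window around the other coding match of *Tcf7l1* spans an exon junction and is not printed. Methylation itself was not measured in these libraries.

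The remaining cytoplasmic effectors did not move as one. *Dvl3*, a Dishevelled adaptor, was depleted, with 1004 and 620 input counts and 310 and 226 RIP counts. Its level went from 24.1 ± 8.52 to 10.8 ± 2.05 CPM without overlap. Its log2 fold change was -1.15 (SE 0.384, edgeR adjusted p = 0.0843, with the replicate block adjusted p = 0.101). The sister genes were not called. *Dvl1* had 147 and 150 counts against 212 and 139 (log2 fold change 0.69), and *Dvl2* had 137 and 136 against 96 and 83 (-0.15). The ratio of *Dvl1* to *Dvl3* counts was 0.146 and 0.242 before pulldown and 0.684 and 0.615 after it. *Axin1* and *Axin2*, scaffolds of the destruction complex of which *Axin2* is also a widely used readout of canonical signalling, had log2 fold changes of 0.67 (SE 0.395) and 0.17 (SE 0.415). *Axin2* had 100 and 81 input counts and 90 and 59 RIP counts, and the groups overlapped in CPM. *Apc*, the other large scaffold, could not be placed. It had 175 and 942 input counts and 343 and 247 RIP counts, so that both RIP libraries fell between the inputs, and its ratio was 1.37 in replicate 1 and -1.42 in replicate 2 on the log2 scale. Its relative *Apc2*, expressed mainly in neurons, had 420 and 326 counts against 432 and 462 and a log2 fold change of 0.72 (SE 0.34, adjusted p = 0.198).

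Among the ligands, the 4 that could be tested all had fold changes above 0, and 3 of them were enriched at the unadjusted limit, which 9.43% of all tested transcripts passed. The other 15 ligands were too low to test, and 1 of the 3, *Wnt5a*, was still enriched with GC and length trends taken out. *Wnt5a*, a ligand of the branches that do not use β-catenin, had 14 and 38 input counts and 71 and 60 RIP counts. Both RIP libraries, at 2.81 and 2.49 CPM, were above both inputs, at 0.42 and 1.11 CPM. Its log2 fold change was 1.79 (SE 0.566, edgeR adjusted p = 0.0717). *Wnt5b*, its paralog, had 14 and 34 counts against 54 and 43, and a log2 fold change of 1.47 (SE 0.582, edgeR adjusted p = 0.133). *Wnt7b*, known from the vessels of the newborn eye and from dendrite growth, had 30 and 9 counts against 48 and 45, with inputs apart the other way round, and a log2 fold change of 1.69 (SE 0.658, edgeR adjusted p = 0.127). With the replicate block the edgeR adjusted p was 0.0142 for *Wnt5a*, 0.0838 for *Wnt5b* and 0.0427 for *Wnt7b*. With GC and length trends taken out it was 0.119, 0.254 and 0.165 in the same order. *Wnt3* had 18 and 8 input counts and 12 and 13 RIP counts (0.39, SE 0.809). The 3 enriched ligands had at most 71 counts in a library, which limits how well their folds are known. *Wnt7b* and *Wnt3* would not have passed the filter on low counts through their inputs alone, while *Wnt5a* and *Wnt5b* would have. With inputs like those of *Wnt7b* or *Wnt3* and few RIP counts, a ligand would not have been tested. So the filter partly set how many tested ligands had folds above 0 or were enriched.

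Of the 9 Frizzled receptors tested, 2 were enriched (9.43% of all tested transcripts were) and none was depleted (17.2% of all were), which with 9 receptors lies near these shares. None was lower at an unadjusted p below 0.05, and none passed an adjusted p below 0.05 in either direction. DESeq2 and limma on log2(FPKM + 0.1) also called no receptor depleted. *Fzd5*, a receptor required for normal eye development and the most abundant of them, had 1082 and 1404 input counts and 1913 and 1793 RIP counts. It went from 36.7 ± 5.98 to 75.2 ± 0.907 CPM (SD, n = 2), and the groups did not overlap. Its log2 fold change of 1.04 (SE 0.336, edgeR adjusted p = 0.078, with the replicate block adjusted p = 0.162) lay just past the limit. *Fzd3*, a receptor of axon guidance and planar polarity, had 289 and 1278 input counts and 1554 and 1417 RIP counts. In CPM it stood at 8.67 and 37.2 in the inputs and at 61.6 and 58.9 in the RIP libraries, so that nearly the whole spread was between the inputs. Its log2 fold change was 1.39 (SE 0.593, edgeR adjusted p = 0.158, with the replicate block adjusted p = 0.0148). *Fzd8* had 24 and 25 counts against 37 and 44 and a log2 fold change of 1.18 (SE 0.528), with an unadjusted p just short of the limit (edgeR adjusted p = 0.175). It was enriched under 5 alternatives, at 1.09 to 1.49, but stood at 0.41 with GC and length trends taken out. *Fzd4*, the norrin receptor of retinal vessels, had 11 and 42 counts against 17 and 30, and the groups overlapped. Its inputs alone would not have passed the filter on low counts. With such inputs and few RIP counts a receptor would not have been tested, so the filter partly set that none was depleted. *Fzd1*, *Fzd2*, *Fzd6*, *Fzd7* and *Fzd10* had between 20 and 141 counts in every library, groups that overlapped, and log2 fold changes from -0.31 to 0.70.

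The secreted Frizzled-related proteins that could be tested, *Sfrp1* and *Sfrp2*, were not called. *Sfrp2* had 439 and 328 input counts and 219 and 278 RIP counts, or 11.4 ± 2.55 and 10.1 ± 2.04 CPM (SD, n = 2), and a log2 fold change of -0.17 (SE 0.358). *Sfrp1* had 183 and 128 counts against 125 and 129 and a log2 fold change of 0.16 (SE 0.387). Both overlapped between RIP and input. The ratio of *Fzd5* to *Sfrp2* counts was 2.46 and 4.28 before pulldown and 8.73 and 6.45 after it.

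In the nucleus, *Tcf7l1* fell and the corepressors *Tle1* and *Tle4* were just under the fold limit for a rise. *Tcf7l1* (ENSMUSG00000055799, chromosome 6, 72626378 to 72789254, minus strand), a TCF factor that acts mainly as a repressor and is known from progenitor cells, had 167 and 119 input counts and 26 and 27 RIP counts. It went from 4.24 ± 1.09 to 1.08 ± 0.065 CPM (SD, n = 2), and both RIP values lay below both input values. The log2 fold change was -1.97 (SE 0.434, edgeR adjusted p = 0.0216), the largest fall among the tested members. *Tcf7l2*, a TCF factor with an activating and a repressing side, had 369 and 468 counts against 217 and 225 and a log2 fold change of -0.46 (SE 0.336). *Tcf7l2* over *Tcf7l1* was 2.21 and 3.93 before pulldown and 8.35 and 8.33 after it. *Lef1*, an activating partner of β-catenin, had 89 and 46 counts against 71 and 77 and a log2 fold change of 0.58 (SE 0.463). *Tle1* had 455 and 402 input counts and 655 and 567 RIP counts, with a log2 fold change of 0.97 (SE 0.331, edgeR adjusted p = 0.0907). *Tle4* had 279 and 261 counts against 377 and 352, with one of 0.89 (SE 0.328, edgeR adjusted p = 0.112). For both, the RIP libraries lay above the inputs and the replicates were close. Both were enriched under scaling by total counts (1.31 and 1.23) but stood at 0.37 and 0.39, not called, with GC and length trends taken out. *Tle3* had 716 and 463 counts against 569 and 575 and a log2 fold change of 0.41.

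**Figure D3:**
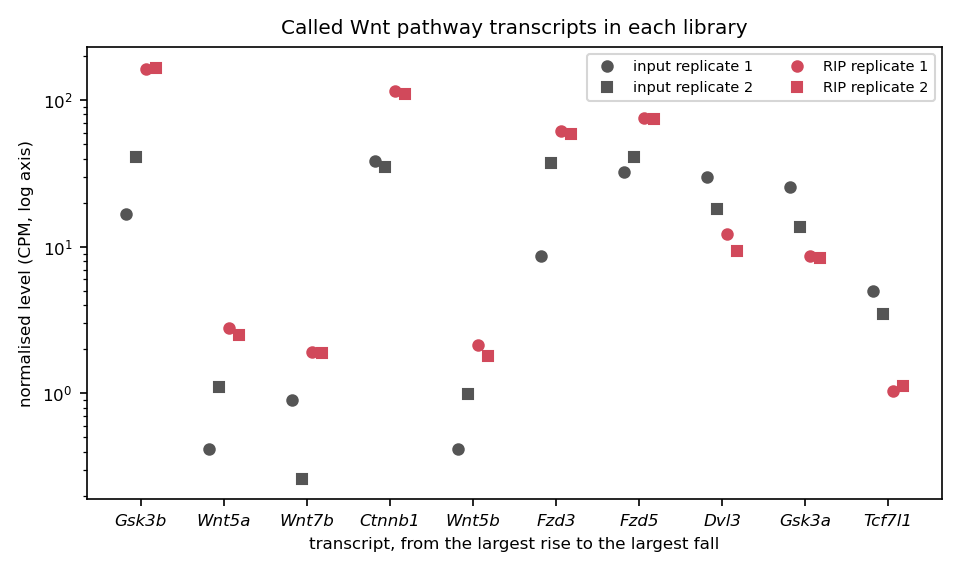
Normalised level (CPM, log axis) of the 10 called members in each of the 4 libraries, inputs in grey and RIP in red, circles for replicate 1 and squares for replicate 2. For each of the 10, all RIP points lie on one side of all input points. The 10 were called on these same values, which favours such a separation, so it adds no support to the calls. Of all tested transcripts, 29.6% had both RIP libraries above both inputs and 31.3% below. The inputs of *Fzd3* (8.67 and 37.2 CPM) are further apart than its RIP libraries (61.6 and 58.9 CPM).

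Other genes of the pathway were read from a list of 75 genes in the table that are not members, of which 55 were tested. Of these, 9 (16.4%) were enriched, against 9.43% of all tested transcripts, and 4 (7.27%) depleted, against 17.2%. With GC and length trends taken out, the enriched numbered 2 and the depleted 4. Fewer of all tested transcripts were enriched in that fit too, and the list no longer stood above their share. *Csnk2b*, the regulatory subunit of casein kinase 2, had 809 and 583 input counts and 105 and 93 RIP counts and fell by 2.36 on the log2 scale (SE 0.367, edgeR adjusted p = 0.00535), and with the trends taken out it was at -1.21 and still depleted. *Csnk1d*, a casein kinase 1 isoform, had 505 and 470 counts against 1298 and 1335 and a log2 fold change of 1.89 (SE 0.336, edgeR adjusted p = 0.00927), and it stayed enriched at 1.40 with the trends taken out. *Kremen1*, a receptor of the inhibitor Dickkopf, was enriched at 1.47 (SE 0.341, edgeR adjusted p = 0.0261), with 254 and 201 counts against 481 and 441. Both co-receptors of the canonical branch were enriched at the unadjusted limit. *Lrp6* had 207 and 450 counts against 653 and 611 and a log2 fold change of 1.41 (SE 0.419, edgeR adjusted p = 0.06, with the replicate block 0.0221). *Lrp5* had 564 and 514 counts against 926 and 771 and a log2 fold change of 1.11 (SE 0.332, edgeR adjusted p = 0.0612, with the replicate block 0.113). With the trends taken out, *Kremen1* was at 0.74, *Lrp6* at 0.73 and *Lrp5* at 0.22, all short of the limit.

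Transcript length moved with the fold change in these libraries. Over the 11953 protein-coding transcripts tested, sorted by length into 10 bins, the longest bin had a median log2 fold change of 0.55 and the shortest one of -1.53 (Spearman's rho with length 0.49 over genes of the same libraries). Across the 31 members the same rho was 0.28. Enriched *Gsk3b* is annotated with 8303 nt and depleted *Gsk3a* with 2260 nt, and *Fzd3*, *Wnt5a* and *Fzd5* with 12734, 7010 and 6915 nt. *Ctnnb1* (3623 nt) was enriched and *Tcf7l1* (3042 nt) and *Dvl3* (3983 nt) were depleted at lengths close to the median of 3339 nt. With smooth trends on length and GC content taken out of each library, *Gsk3b* was at 1.89, *Ctnnb1* at 1.25, *Fzd3* at 1.21 and *Wnt5a* at 1.15, all still enriched, and the same 3 members were depleted, *Dvl3* at -1.70, *Gsk3a* at -1.30 and *Tcf7l1* at -2.40. *Fzd5* was then at 0.17 and no longer called. *Wnt5b* at 1.15 and *Wnt7b* at 1.23 were lower than before and missed the limit on p, although *Wnt7b* was called at 1.32 when the replicate block was added to the trends.

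**Figure D4:**
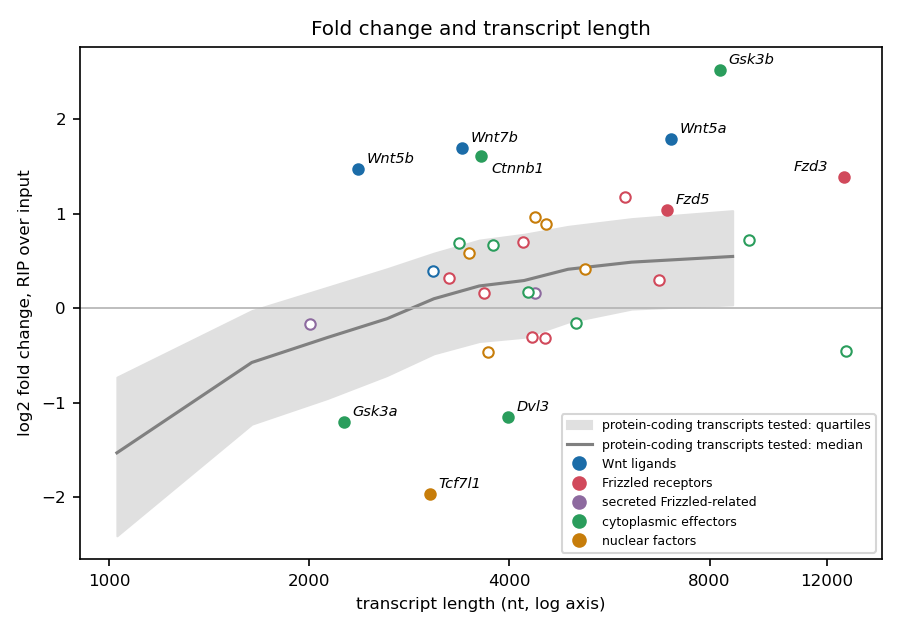
Log2 fold change against transcript length (nt, log axis) for the 31 tested members, filled where called and named, over the median and quartiles of 11953 protein-coding transcripts in 10 bins of length. The 7 enriched members lie above the upper quartile of their length bin, *Fzd5* (1.04) by the smallest margin, and the 3 depleted ones below the lower quartile. Both follow largely from the call limits of 1 and -1. The upper quartile is at most 1.03 in any bin, and the lower one is above -1 at the lengths of the depleted members.

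Calls differed in how far they hung on single libraries. *Gsk3b* (2.01 to 3.31), *Ctnnb1* (1.55 to 1.72) and *Tcf7l1* (-2.21 to -1.68) were called in each of the 4 fits that left out a library. Without input replicate 1, *Fzd3* was at 0.69, *Fzd5* at 0.88, *Dvl3* at -0.74, *Gsk3a* at -0.68 and *Wnt5b* at 0.98, all short of the limits, while *Wnt7b* rose to 2.83. Without input replicate 2, *Wnt7b* was at 1.06 and not called, *Fzd3* was at 2.80 and *Wnt5b* at 2.21. With either RIP library left out the spread had to come from the inputs alone, and *Fzd3*, *Fzd5*, *Dvl3*, *Gsk3a*, *Wnt5b* and *Wnt7b* were not called, nor was *Wnt5a* without RIP replicate 1 (1.75). *Dvl3* and *Gsk3a* were also not called when libraries were scaled by total counts alone, at -0.77 and -0.84.

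**Figure D5:**
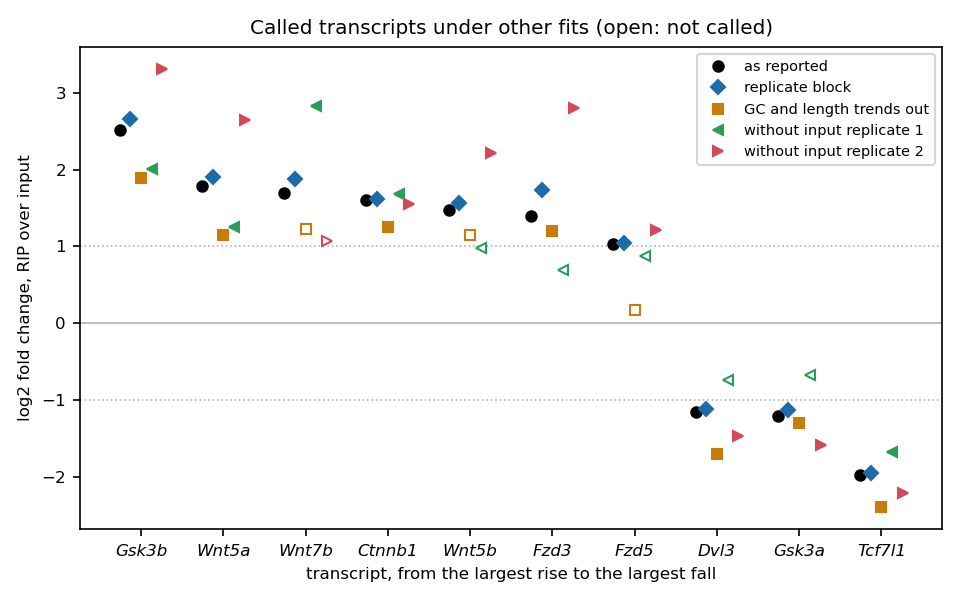
Log2 fold change of the 10 called members as reported, with the replicate block, with GC and length trends taken out, and without each input library; open symbols are values not called. *Gsk3b*, *Ctnnb1*, *Tcf7l1* and *Wnt5a* are filled in every fit shown, and *Fzd5* drops from 1.04 to 0.17 with the trends taken out.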

How the data were processed

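RNA of P0 retina was sequenced with a stranded kit before and after anti-YTHDF2 pulldown, in 2 biological replicates. The authors deposited read counts per gene, not normalized, and FPKM values of the same genes, scaled by gene length and library. Per the submitters' processing notes STAR 2.5, HTSeq and GRCm38 were used; settings and annotation release are not given in the sources used here. For 52403 of 52550 identifiers, positions and the longest transcript (protein-coding where there was one) were found in GENCODE M21 (GRCm38).

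Counts were analysed with edgeR 4.0.16 in R 4.3.3 (filterByExpr with minimum count 10 and total 15, TMM, glmQLFit, glmQLFTest). Each of the 2 replicates holds an input and a pulldown by the design text; replicate deviations of inputs and RIP libraries had a Spearman correlation of -0.03 over genes, and a replicate block was an alternative. Inputs differed by 168 and RIP libraries by 22.6 chi-square per degree of freedom, beyond counting noise.

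Alternatives were DESeq2 1.42.0, other scalings and filters, limma 3.58.1 on FPKM with a pseudocount of 0.1 or 1 before log2, GC and length trends (mgcv 1.9.3, basis size 8), and each library left out. The edgeR fit was tested on simulated data of 13632 genes, where 91.5% of 200 genes changed by 2 on the log2 scale were called and 4.04% of the others. The simulation gave inputs and RIP libraries the same spread and no trend on length or GC content. Its changed genes were drawn from those not low in counts. It therefore does not measure the rate of false calls in these data.

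Members and lists were chosen with earlier results of these data known. Values are given for called members, the most abundant and most changed of each role, and *Ctnnb1*, *Axin2*, *Lef1*, *Fzd5*, *Sfrp2* and *Wnt5a*, and for the 5 called genes with the smallest p of the further list; the values of other members, the windows of *Ctnnb1* and the ratios of 2 genes were chosen after the values were seen.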

Additional observations from a re-analysis of the deposited data

How the results depend on the processing

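Low counts limit the ligands, and the spread between the inputs limits every call that rests on a single one of them. Over the alternatives the 10 called members kept their direction in every fit, with 90 values still called and 19 not, and 21 and 19 when a library was left out. *Wnt7b*, with 9 counts in an input, had no value at a minimum of 10 counts in every library. The members called enriched, 7 as reported, numbered 13 under scaling by library size, 4 by limma on log2(FPKM + 1) and 4 with GC and length trends taken out; all transcripts numbered 2357, 386 and 845 (843 with trends and block), against 1286. The members called depleted, 3 as reported, numbered 1 under library size, 1 by limma on log2(FPKM + 0.1) and 0 by limma on log2(FPKM + 1); all transcripts numbered 1055 there, against 2344. Members higher at an adjusted p below 0.05, 2 as reported, numbered 4 under library size and log2(FPKM + 1) and 5 with the replicate block; all transcripts numbered 730 by DESeq2, 845 under library size, 292 without a filter and 721 with the replicate block, against 474. Members lower at an adjusted p below 0.05, 1 as reported, numbered 3 by DESeq2 and with trends (with or without the block), 2 at a minimum of 10 counts and 0 by limma at either pseudocount, where 1 member, *Tcf7l1*, was lower at an unadjusted p below 0.05. Beside these, the replicate block changed no call of a member at the unadjusted limits. With a library left out, 2 to 7 members were enriched, 1 to 3 depleted, 0 to 12 higher and 0 to 5 lower at an adjusted p below 0.05, and of all transcripts 623 to 2087, 1475 to 2565, 4 to 2534 and 88 to 2721; both counts of 0 (edgeR) were without a RIP library, where 2 or 3 members were enriched and 1 depleted at an unadjusted p below 0.05. The median of the members minus that of all transcripts, 0.46 as reported, was 0.17 by log2(FPKM + 1), 0.15 with trends, 0.17 with trends and block and 0.31 to 0.72 without a library. Members that were not called changed sign in 26 values, kept their sign and stayed not called in 190, though often at another size, and were called in 14. With trends taken out, without and with the block, *Apc2* was at -0.49 and -0.47, *Axin2* at -0.45 and -0.46, *Fzd2* at -0.34 and -0.33, *Fzd4* at -0.30 and -0.20, *Fzd10* at -0.037 and -0.035, *Sfrp1* at -0.36 and -0.35, *Sfrp2* at 0.030 and 0.018 and *Tle3* at -0.42 and -0.41, and *Fzd1* was at -0.012 without it. Under library size *Dvl2* was at 0.19, *Fzd6* at 0.032, *Fzd7* at 0.031 and *Sfrp2* at 0.15. By log2(FPKM + 0.1) *Apc* was at 0.15, and at either pseudocount *Dvl2* was at 0.10 and 0.048 and *Sfrp2* at 0.099 and 0.082. Without a library *Apc* ranged from -1.20 to 1.18, *Axin2* from -0.036 to 0.50, *Fzd2* from -0.19 to 0.65, *Fzd4* from -0.35 to 1.53, *Fzd6* from -0.59 to 0.064, *Fzd7* from -0.57 to 0.0089, *Fzd10* from -0.16 to 1.02, *Sfrp1* from -0.090 to 0.47, *Sfrp2* from -0.38 to 0.12 and *Wnt3* from -0.088 to 1.11. The cause of these moves was not tested.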
